A study of Mus musculus with 6 samples.

Results

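Smooth muscle contractile genes were examined in RNA sequencing data from embryonic day 9.5 mouse embryos, as a set of 10 genes: Acta2, Actg2, Myh11, Myl9, Cnn1, Tagln, Tpm2, Smtn, Lmod1 and Synpo2. All 10 were found, among the 25888 genes of the expression table, whose Ensembl identifiers were matched to symbols, and the cardiac actin gene Actc1 served as the striated muscle reference. The tissue was the anterior dorsal pericardial wall together with the outflow tract, in embryos of the C57BL/6 strain. The 3 control libraries carry no genotype beyond the word control in the labels, and the 3 mutant libraries came from Hand2flox/flox; Mef2c-AHF-Cre embryos, in which Cre recombinase removes floxed Hand2 in the anterior second heart field and its descendants. Cells of the dissected tissue outside that lineage keep the gene. Each library was made from pooled dissections, and neither the number of embryos per pool nor the alleles of the controls are stated. The comparison asks how the contractile genes stood after loss of Hand2, a transcription factor of the developing heart.

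Smooth muscle contracts when a myosin motor, built from the heavy chain Myh11 and light chains that include Myl9, pulls on actin filaments of Acta2 and Actg2. Calponin, transgelin, tropomyosin and smoothelin sit along those filaments, and leiomodin and synaptopodin 2 help to assemble and bundle them. In the early mouse heart several of these genes, Acta2 and Tagln among them, are also expressed by the heart muscle itself, before smooth muscle forms in the walls of the great arteries, so their names do not identify the cell that makes them. Many genes of smooth and cardiac muscle are switched on by serum response factor, which binds the CArG box, a stretch of 10 bases that opens with a CC pair, closes with a GG pair and holds only A and T between.

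The promoters of Acta2 and Myl9 are shown with that of Actc1 because Acta2 and Myl9 were the members found to have CArG boxes near the start of transcription, and Actc1 is the reference. Each line gives the 250 bases before the RefSeq start site on GRCm38.p6, 5′ to 3′ on the strand of the gene, with capitals marking CArG boxes, either complete or with 1 of the inner letters replaced by C or G. Acta2 lies at chr19:34255374-34255623 on the minus strand, Myl9 at chr2:156775214-156775463 on the plus strand and Actc1 at chr2:114052876-114053125 on the minus strand.
Acta2: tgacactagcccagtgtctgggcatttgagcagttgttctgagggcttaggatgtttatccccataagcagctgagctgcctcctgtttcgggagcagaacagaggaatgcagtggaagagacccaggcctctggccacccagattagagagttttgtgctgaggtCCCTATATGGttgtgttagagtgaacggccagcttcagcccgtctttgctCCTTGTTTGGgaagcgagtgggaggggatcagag
Myl9: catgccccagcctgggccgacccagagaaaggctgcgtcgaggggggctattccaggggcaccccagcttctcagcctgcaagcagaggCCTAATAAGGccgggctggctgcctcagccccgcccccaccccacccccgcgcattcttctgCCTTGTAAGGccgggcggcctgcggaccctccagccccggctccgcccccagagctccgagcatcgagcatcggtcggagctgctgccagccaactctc
Actc1: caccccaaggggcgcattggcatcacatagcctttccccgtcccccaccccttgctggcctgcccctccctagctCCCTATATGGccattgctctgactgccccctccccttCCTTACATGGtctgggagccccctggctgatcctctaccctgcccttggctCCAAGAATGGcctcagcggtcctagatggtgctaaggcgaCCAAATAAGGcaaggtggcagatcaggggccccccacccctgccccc
The pattern reads the same on both strands, and boxes could overlap other motifs, which were not searched. Counting bases back from the start, Acta2 had 2 boxes with 1 letter replaced, from -84 to -75 and from -34 to -25. Myl9 had a complete box from -161 to -152 and 1 with a replaced letter. Actc1 had a complete box from -47 to -38 and 3 with a replaced letter, and the box furthest from its start has the same letters, CCCTATATGG, as the outer box of Acta2. RefSeq promoters were held for 7 of the 10 genes, and those of Actg2, Tagln and Myh11 were missing and not searched. In Cnn1, Lmod1, Synpo2, Smtn and Tpm2 neither form of the box occurred within 250 bases before and 50 after the start. Over all 27025 genes with such a promoter, 1.81% had a complete box and 11.3% had a box of either form.

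Every one of the 10 genes had a lower mean in mutants, from 31.5% of the control mean for Myh11 to 85.9% for Smtn, and each was lower in all 3 same-numbered pairs of libraries. The size of the difference was uneven. Acta2, Cnn1, Synpo2, Lmod1, Myl9 and Tagln stood at 57.4% to 65.6% of control, where Actc1 stood at 55.0%. The scarce Myh11 and Actg2 lay lower, and Tpm2 (83.2%) and Smtn (85.9%) lay nearest to control. Which of these passed a test is given with each gene. Expression is given as FPKM, which divides a gene's fragments by its length and by a depth value for each library. Levels can thus be compared between genes. In bulk tissue, fewer cells of a type and less RNA per cell cannot be told apart.

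The libraries held 26990502 to 34796416 recovered reads. Hand2, the targeted gene, went from a control mean of 87.3 ± 26.3 to 24.9 ± 8.69 FPKM (SD over 3 libraries per group), with no overlap between the groups. In limma Hand2 itself did not pass without the replicate number as a block (adjusted p = 0.109) and passed with it (adjusted p = 0.00279). Markers of other cells moved with the groups as well. The 27 cardiac muscle markers summed to 6413 to 10167 FPKM in controls and 4214 to 6409 in mutants, or 63.9% of the control mean, where the 10 contractile genes together came to 60.6%. With the replicate number as a block, which called 3.70% of all genes lower and 1.42% higher, 21 of the 26 cardiac markers tested were lower. Without the block 1 was, where 0.150% of all genes were called lower. The 12 endothelial markers, 5 of them lower with the block and 0 in limma without it (6 by an unadjusted p under 0.05), summed to 220.6 to 270.0 and 184.8 to 206.2 FPKM, and the 10 mural cell markers, of which 8 were tested, 2 were lower with and without the block and 1 was higher with it, to 108 to 119 and 92.4 to 100.6. Kcnj8 and Higd1b, both used to define pericytes, stayed near 0, with group means of at most 0.115 FPKM. Other mural markers, chosen here after their values were seen, were well expressed. Rgs5 had 3649 to 3915 recovered reads in controls and 964 to 1298 in mutants. Pdgfrb had 2290 to 2642 and 2354 to 2573, and Notch3 had 4970 to 7911 and 6853 to 8423. Of the 8 mural markers tested 4 had a log2 fold change below 0, and the median was -0.02. No marker of any of these 3 lists was at 0 in all 6 libraries. The 10 red cell markers ranged from 3353 to 7982 FPKM in controls and from 3499 to 5092 in mutants. Control replicate 3 also held yolk sac and liver transcripts, 621 FPKM over 10 markers against 2.80 to 6.95 in the other 5 libraries. What part these differences have in the values that follow was not tested.

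**Figure D1:**
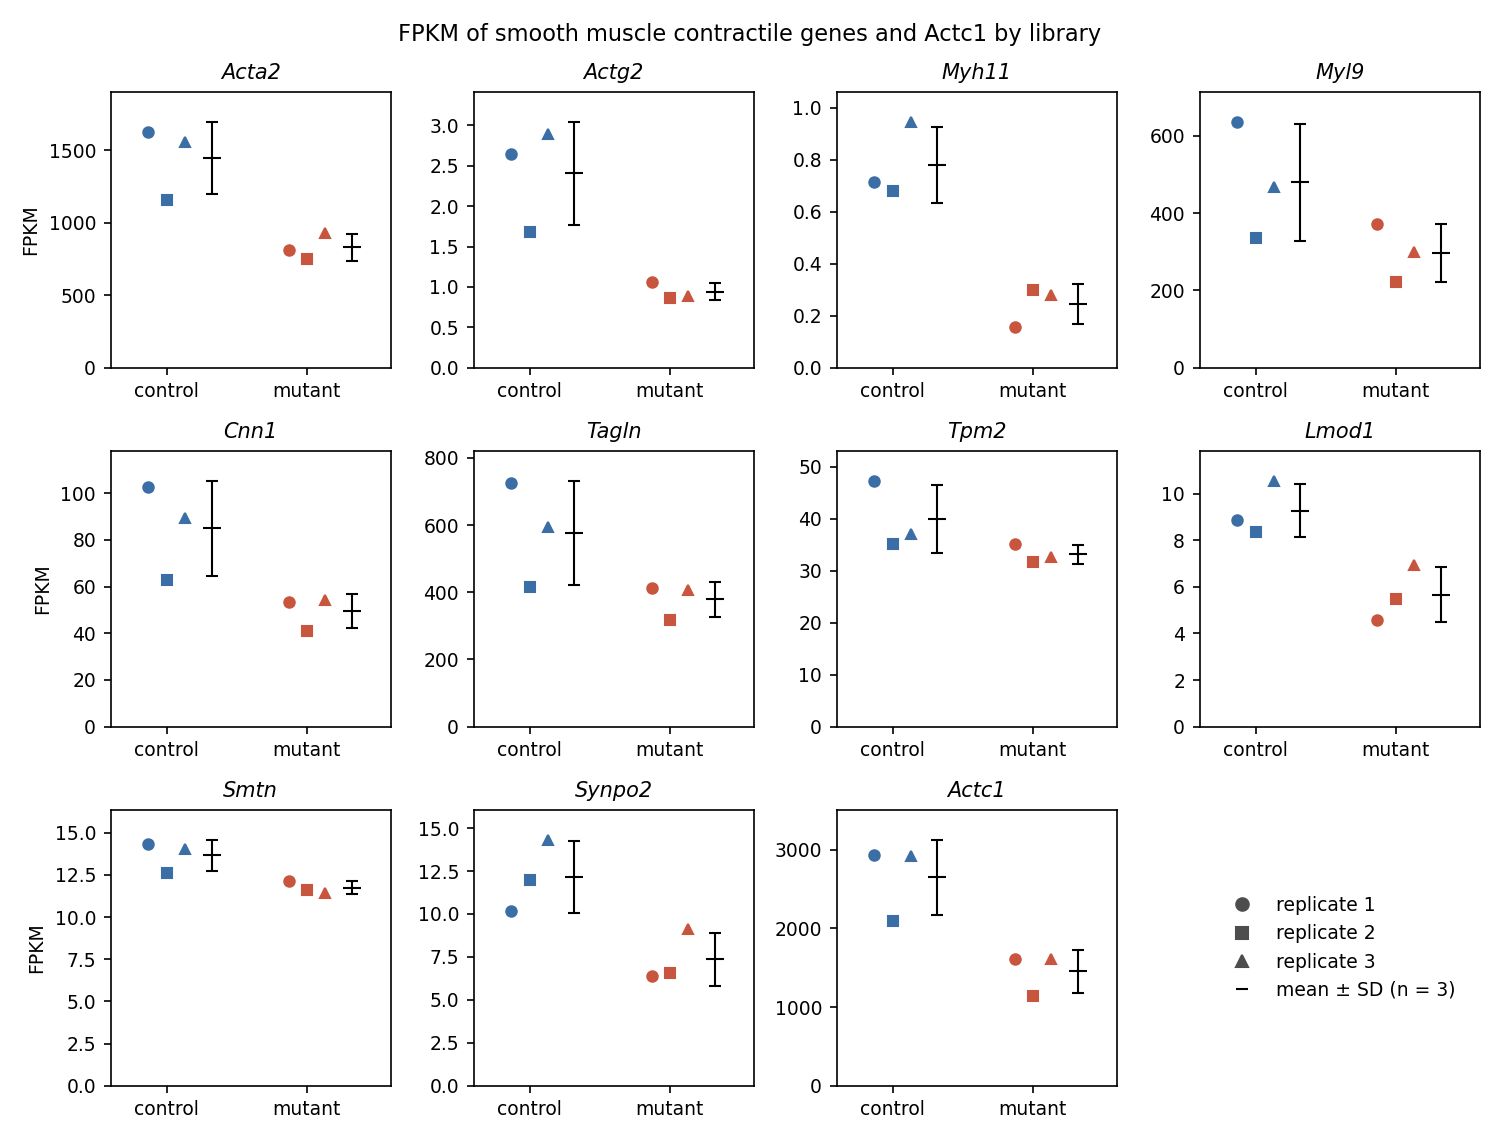
FPKM (vertical axes, from 0) of the 10 smooth muscle contractile genes and Actc1 in 3 control and 3 mutant libraries, with a symbol per replicate number and bars for mean ± SD (n = 3). Mutant points lie below all control points except for Myl9, where mutant replicate 1 (371 FPKM) is above control replicate 2 (335 FPKM).

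Acta2 (chromosome 19, 34241090 to 34255590, minus strand) encodes smooth muscle alpha-actin and was the most abundant of the 10 in every library. It had 1625, 1159 and 1554 FPKM in control libraries 1 to 3 and 814, 748 and 928 FPKM in mutant libraries 1 to 3. The lowest control stood above the highest mutant. Means were 1446 ± 251 and 830.1 ± 91.1 FPKM (SD over 3 libraries each). On the log2(FPKM + 1) scale the difference, mutant minus control, was -0.79 (SE 0.22). In limma over 12650 genes this did not pass (adjusted p = 0.427), and it passed with the replicate number as a block, which compares libraries of the same number (adjusted p = 0.0138, SE 0.09).

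Actg2 (chromosome 6, 83512905 to 83536265, minus strand), the smooth muscle gamma-actin of gut and other hollow organs, was far scarcer. Controls had 2.65, 1.67 and 2.89 FPKM and mutants 1.06, 0.865 and 0.893 FPKM. These values rest on 81 to 121 recovered reads per control library and 36 to 38 per mutant library. The groups were fully apart and the mutant mean was 39.1% of the control mean. On the log2(FPKM + 1) scale, which shrinks changes of low genes, the difference was -0.79 (SE 0.16, limma adjusted p = 0.199 without and 0.0240 with the block), and on recovered reads with the block it was -1.33 (SE 0.21).

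Myh11 (chromosome 16, 14194535 to 14291372, minus strand) encodes the smooth muscle myosin heavy chain, the member most restricted to differentiated smooth muscle. It was the scarcest of the 10 in each library, at 0.713, 0.680 and 0.947 FPKM in controls and 0.158, 0.299 and 0.281 FPKM in mutants. Recovered reads numbered 110, 140 and 169 in controls and 24, 53 and 51 in mutants, so the lowest control was well above the highest mutant. With a mean FPKM under 1 it fell below the filter of the main test. When genes with at least 10 reads in 3 libraries were tested by limma's voom on recovered reads, an analysis added after the data were seen, the log2 fold change with the block was -1.64 (SE 0.21, adjusted p = 0.00109), and 5.60% of the 16414 genes tested there were called lower. It did not pass without the block (adjusted p = 0.0669). In controls its mean was 0.780 ± 0.146 FPKM, where that of Acta2 was 1446 FPKM.

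Myl9 (chromosome 2, 156775420 to 156781658, plus strand), the regulatory light chain whose phosphorylation switches smooth muscle myosin on, was the member with overlapping groups. Its FPKM was 637, 335 and 467 in controls and 371, 222 and 298 in mutants. Control replicate 2 was below mutant replicate 1. Within each number the mutant was nonetheless lower, at 58.3%, 66.4% and 63.8% of its control. The log2 fold change of -0.67 carried an SE of 0.29 without the block and 0.07 with it (limma adjusted p = 0.732 and 0.00856).

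Among the proteins bound along the actin filament, Cnn1 (chromosome 9, 22099216 to 22109630, plus strand), or calponin 1, a brake on the myosin motor, was at 103, 62.6 and 89.5 FPKM in controls. Mutants had 53.4, 41.1 and 54.1 FPKM, all under the lowest control. That is a log2 fold change of -0.75 (SE 0.20, limma adjusted p = 0.394 without and 0.00867 with the block). Tagln (chromosome 9, 45929619 to 45936058, minus strand) encodes transgelin, an actin-bundling protein also called SM22-alpha. It had 724, 416 and 593 FPKM in controls and 412, 318 and 407 FPKM in mutants, so that control replicate 2 and mutant replicate 1 were nearly level. Its difference was -0.58 (SE 0.24, limma adjusted p = 0.707 without and 0.0314 with the block).

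Tpm2 (chromosome 4, 43514711 to 43523765, minus strand) encodes beta-tropomyosin, which lies in the groove of actin filaments in many muscle types. It had 47.4, 35.200 and 37.1 FPKM in controls and 35.191, 31.8 and 32.6 FPKM in mutants. The groups touched without overlapping, and the difference was -0.25 (SE 0.13). Smtn (chromosome 11, 3517523 to 3540612, minus strand) encodes smoothelin, an actin-binding protein. It had 14.3, 12.6 and 14.1 FPKM in controls and 12.2, 11.6 and 11.4 FPKM in mutants, a difference of -0.20 (SE 0.09). These 2 genes passed in limma neither without the block (adjusted p = 0.834 and 0.728) nor with it (adjusted p = 0.106 for both). By limma's voom on recovered reads with the block, Tpm2 passed (adjusted p = 0.0447, and 0.0450 with the filter used for Myh11) and Smtn did not (adjusted p = 0.0645 and 0.0686).

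Of the genes of filament assembly, Lmod1 (chromosome 1, 135324807 to 135368065, plus strand), which starts new actin filaments in smooth muscle, had 8.88, 8.37 and 10.6 FPKM in controls. In mutants it had 4.60, 5.48 and 6.92 FPKM, below every control, with a log2 fold change of -0.63 (SE 0.15). Synpo2 (chromosome 3, 123076519 to 123236149, minus strand), an actin-bundling protein of smooth and striated muscle, had 10.2, 12.0 and 14.3 FPKM in controls and 6.38, 6.55 and 9.15 FPKM in mutants. Its groups were apart as well, with a log2 fold change of -0.66 (SE 0.17). Both passed in limma with the block (adjusted p = 0.0137 and 0.00688) and not without it (adjusted p = 0.322 and 0.370).

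Across the 9 members tested by limma, none passed without the block, where 0.150% of the 12650 genes tested were called lower. At an unadjusted p under 0.05, 6 of the 9 were lower, as were 546 of all genes tested. With the block 7 were called lower, Acta2, Actg2, Myl9, Cnn1, Tagln, Lmod1 and Synpo2, against 3.70% of all genes called lower and 1.42% called higher. Array weights without a block called 5, Acta2, Actg2, Cnn1, Lmod1 and Synpo2, against 2.76% of all genes. The median log2 fold change of the 9 was -0.66, beside -0.0068 over all genes tested, of which 1.21% stood at or below -0.66. The groups did not overlap, with mutants lower, for 8 of the 9 and for 6.85% of all genes tested. For each of the 10 genes alone, a two-sided exact permutation test on 3 against 3 libraries cannot go below p = 0.1, which 9 reached, and the exact p for Myl9 was 0.2.

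The blocked calls depend on the filter on low values and on which libraries are kept. With the block and no filter, limma called 21 of 25888 genes lower, or 0.0811%, and 0 of the 10 members. In the added voom test with the block 9 members were called lower, where 5.60% of 16414 genes were. Leaving out both libraries numbered 1, 2 or 3, the block called 6, 5 and 4 members lower. Of all genes tested it called 246 of 12665, 229 of 12635 and 210 of 12632 lower. Cnn1, Myl9, Lmod1 and Synpo2 were called in all 3 of these fits.

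**Figure D2:**
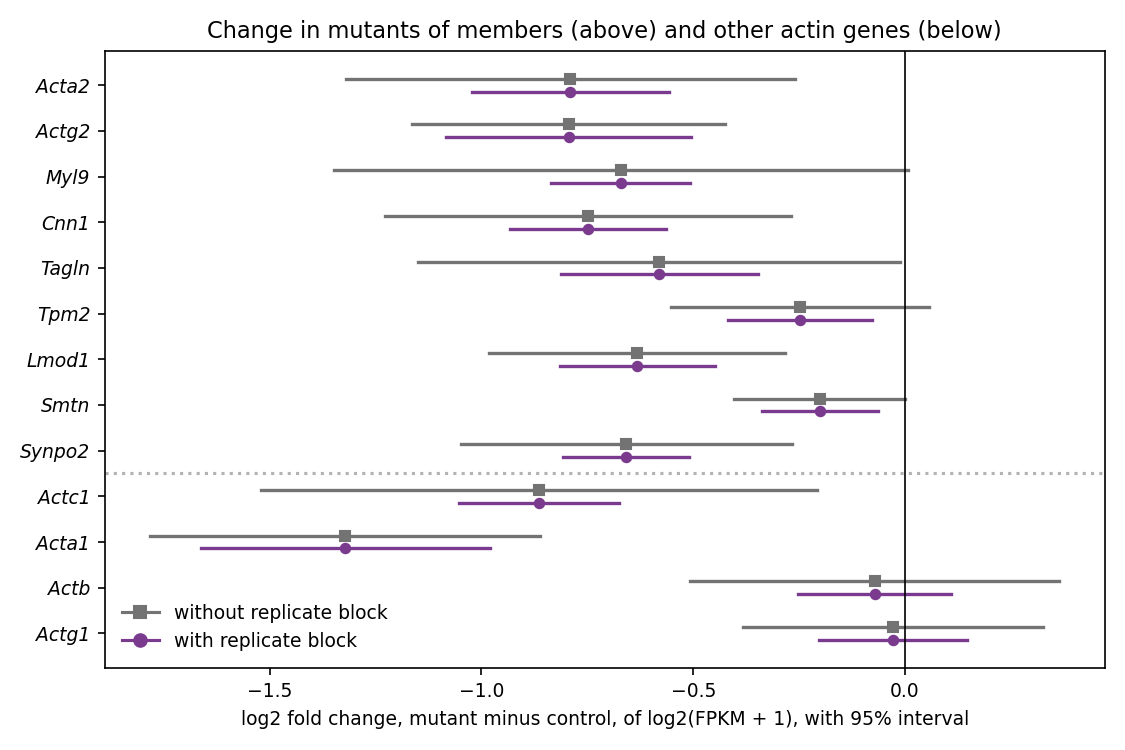
Log2 fold change, mutant minus control, on the log2(FPKM + 1) scale (horizontal axis) with 95% intervals from limma without (squares) and with (circles) the replicate block, for the 9 members tested, above the dotted line, and 4 other actin genes. With the block 7 members, Actc1 (-0.86) and Acta1 (-1.32) are called lower, and the intervals of Actb and Actg1 span 0.

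The levels kept their order. In 5 of the 6 libraries the 10 genes ranked Acta2, Tagln, Myl9, Cnn1, Tpm2, Smtn, Synpo2, Lmod1, Actg2 and Myh11 by FPKM, and in control replicate 3 Synpo2 (14.3 FPKM) and Smtn (14.1 FPKM) changed places. Tagln and Myl9, neighbours in that order, had control means of 578 ± 155 and 480 ± 151 FPKM (SD, n = 3 each). Tagln was above Myl9 in all 6 libraries. Smtn (13.7 ± 0.94) and Synpo2 (12.2 ± 2.09) were close in controls and stood further apart in mutants, at 11.7 ± 0.38 and 7.36 ± 1.55 FPKM.

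Actc1, the reference, encodes the alpha-actin of cardiac sarcomeres and is made in large amounts by the early heart tube. It had 2937, 2091 and 2917 FPKM in controls and 1612, 1143 and 1612 FPKM in mutants, without overlap. Its log2 fold change was -0.86 (SE 0.28, limma adjusted p = 0.530 without and 0.00629 with the block). In the 3 pairs the mutant stood at 54.9%, 54.7% and 55.3% of the control, a narrower range than the 50.1%, 64.6% and 59.7% of Acta2.

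Measured against Actc1 in the same library, the smooth muscle genes showed 3 patterns. Acta2 was at 55.3%, 55.4% and 53.3% of the Actc1 FPKM in controls and at 50.5%, 65.5% and 57.6% in mutants. These ratios overlapped (two-sided exact permutation p = 0.7), and those of Cnn1, Lmod1, Synpo2 and Myl9 overlapped too (exact permutation p from 0.3 to 0.7). Tpm2, Smtn and Tagln had ratios that were higher in every mutant than in any control. For Tpm2 the ratio went from 1.52 ± 0.22% to 2.33 ± 0.40% and for Smtn from 0.524 ± 0.068% to 0.827 ± 0.165% (SD over 3 libraries each), while Tagln went from 21.6 ± 2.64% to 26.2 ± 1.38%. Actg2 moved the other way, from 0.0898 ± 0.0095% to 0.0657 ± 0.0102%, with no overlap, and Myh11 went from 0.0297 ± 0.0047% to 0.0178 ± 0.0082% with overlap (exact permutation p = 0.2). For the 4 genes without overlap the exact permutation p of the ratio was 0.1, the smallest possible, and 10 ratios were examined.

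The difference in change was also tested by limma, on log2(FPKM + 1) of each gene minus that of Actc1. Most genes stood above Actc1 in change, and 92.7% of 12649 genes were called higher relative to it, and 98.0% with the block, so a call there sets no member apart. The values of all genes in this fit also share the noise of that 1 gene. Smtn (0.66, 95% interval 0.10 to 1.23) and Tpm2 (0.62, 0.06 to 1.17) were called, with adjusted p of 0.0250 and 0.0325, and no other member was. Both calls were lost without control replicate 1 or 3 or mutant replicate 1 or 2. The number of all genes called higher moved as well, from 11730 to 4011 without control replicate 1 and to 95 without control replicate 3, and it was 104 with quantile normalization. With the block Tagln, Myl9, Lmod1 and Synpo2 were called too, with differences of 0.19 to 0.28. Acta2 (0.07, blocked interval -0.16 to 0.31), Cnn1 (0.12, -0.07 to 0.30) and Actg2 (0.07, -0.22 to 0.36) were not distinguished from Actc1 on this scale. For the scarce genes the scale decides the sign. By limma's voom on recovered reads with the block, Myh11 lay 0.78 below Actc1 (log2 difference -0.78, adjusted p = 0.00543). Actg2 had a difference of -0.47 there (adjusted p = 0.0543). In that voom fit 86 of 16413 genes were called lower relative to Actc1 and 14937 higher. On the log2(FPKM + 1) scale with no filter the difference of Myh11 was 0.35.

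**Figure D3:**
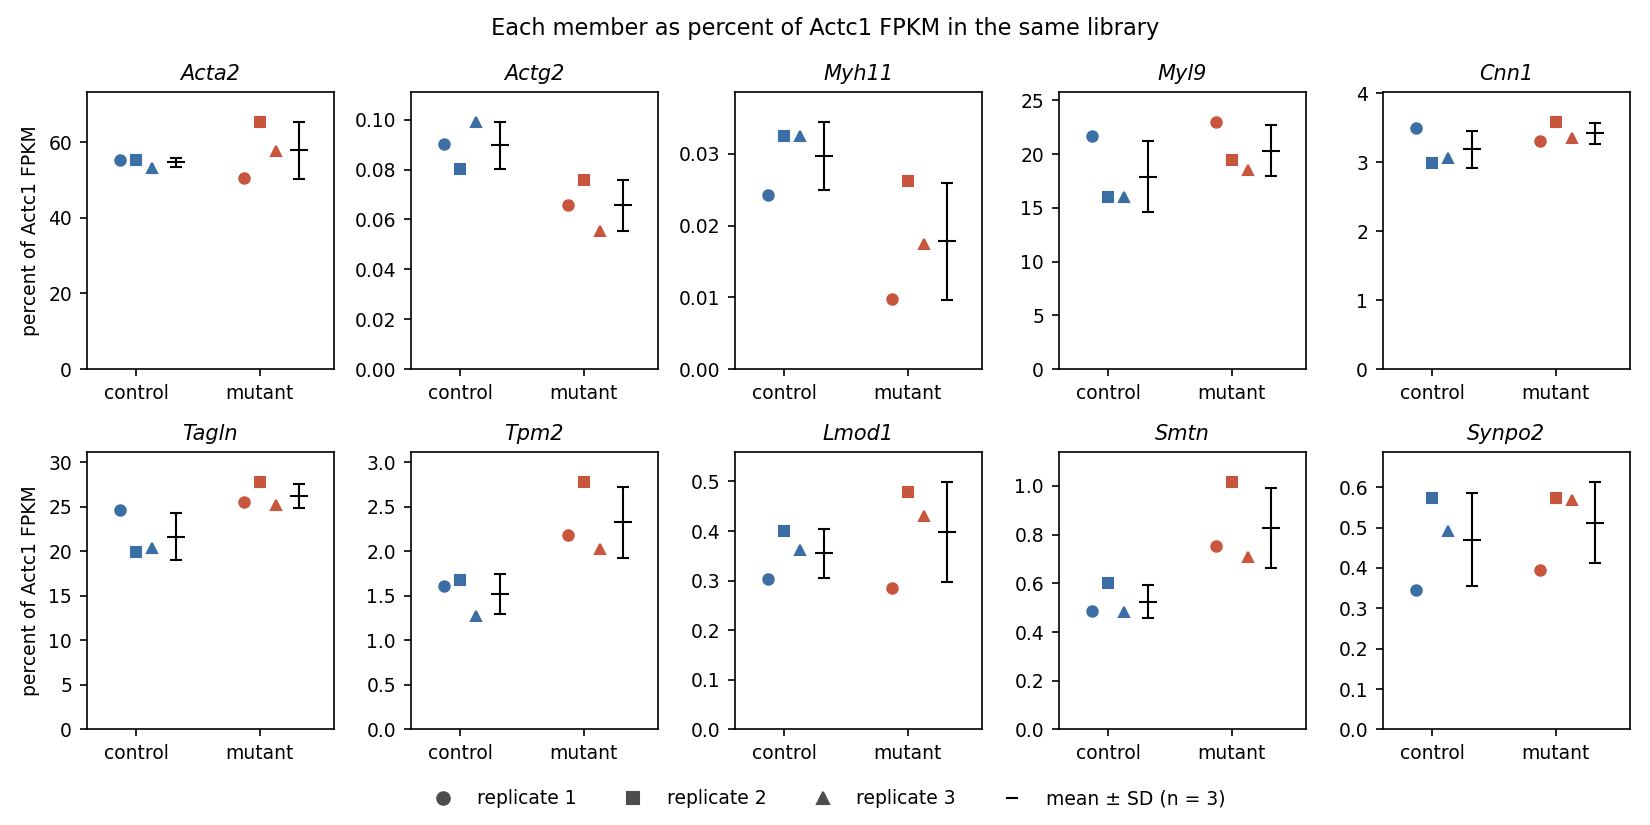
FPKM of each of the 10 genes as percent of the Actc1 FPKM in the same library (vertical axes, from 0), for 3 control and 3 mutant libraries, with a symbol per replicate number and bars for mean ± SD (n = 3). Mutant points are all higher for Tagln, Tpm2 and Smtn, all lower for Actg2, and mixed with the controls for the other 6.

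All 6 actin genes were measured, and few exact stretches were shared between their transcripts. No window of 100 bases in the annotated coding transcripts of any of them occurred in another, and of the windows of 50 bases in Acta2 0.326% did, all of them shared with Actg1. The search allowed no mismatches and covered only these 6 genes, so unique assignment of reads was not tested. Together the 6 actin genes came to 5749 ± 880 FPKM in controls and to 3695 ± 368 FPKM in mutants, of which Actb and Actg1 made up 1346 ± 144 and 1289 ± 50.6 FPKM (SD, n = 3). Acta1, the skeletal muscle alpha-actin that the embryonic heart also makes, had 378, 226 and 315 FPKM in controls and 118, 119 and 121 FPKM in mutants. The log2 fold change of Acta1 was -1.32 (SE 0.20, limma adjusted p = 0.0852 without and 0.0102 with the block). The cytoplasmic actin genes of all cells, Actb (916 ± 101 and 869 ± 42.1 FPKM) and Actg1 (431 ± 44.9 and 421 ± 9.55 FPKM), passed in neither fit.

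Acta2 made up 25.2%, 24.3% and 25.8% of the summed actin FPKM in controls and 20.9%, 22.9% and 23.7% in mutants. The groups did not overlap (two-sided exact permutation p = 0.1, the smallest possible). Among Acta2, Actg2 and Actc1 alone, however, the Acta2 share averaged 35.3 ± 0.52% in controls against 36.5 ± 3.01% in mutants (SD, n = 3, exact permutation p = 0.7). Over these 3 genes the groups overlapped, so the lower share in mutants depended on which genes were in the denominator.

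**Figure D4:**
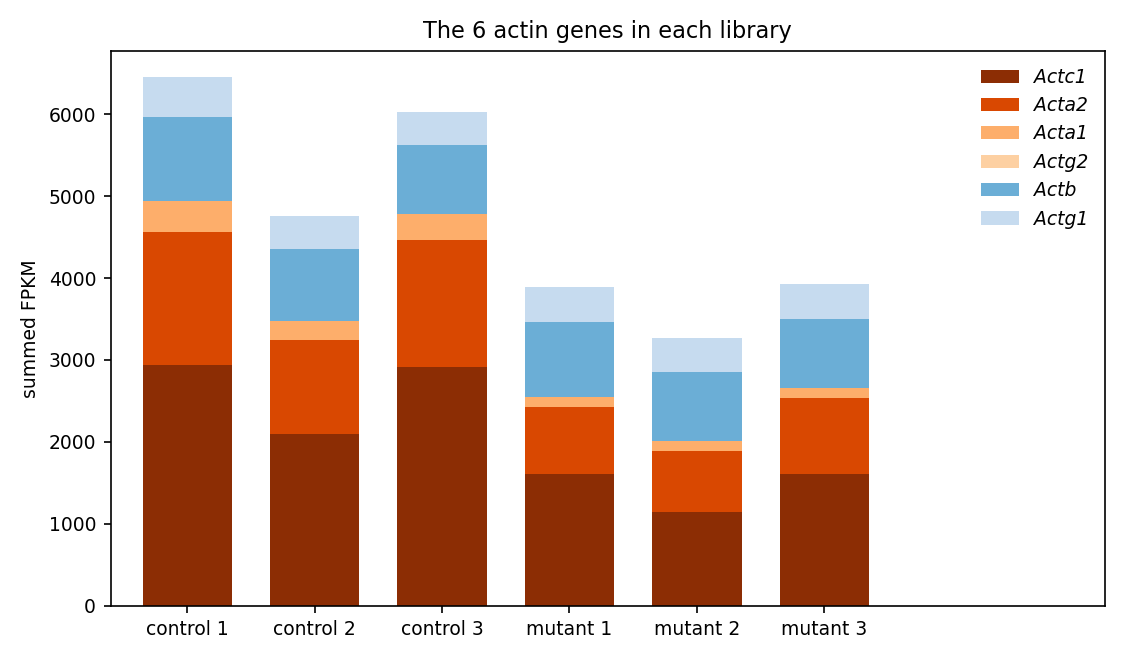
Stacked FPKM (vertical axis, from 0) of the 6 actin genes in each of the 6 libraries. The summed height is lower in all mutants (3271 to 3923 FPKM) than in all controls (4763 to 6454 FPKM), the Actb and Actg1 layers differ little, and the Actg2 layer is too thin to see.

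Other genes of the smooth muscle apparatus were read from a list of 30, all of them tested. In limma without the block 0 passed, although 11 were lower by their unadjusted p. With the block 12 were lower and 0 higher, against 3.70% of all genes tested called lower and 1.42% called higher. The median log2 fold change of the list was -0.27. The 6 with the smallest p were all called with the block. Nexn, an actin-binding protein of muscle, had means of 38.3 ± 3.05 and 28.5 ± 1.41 FPKM and Kcnmb1, a subunit of the calcium-activated potassium channel of smooth muscle, of 4.28 ± 0.75 and 2.42 ± 0.51 (controls first, SD over 3 libraries). The Z-disc gene Ldb3 had 33.5 and 19.6 FPKM, the intermediate filament gene Des 139 and 84.8, the actin-severing gene Dstn 214 and 154, and Tpm1 255 and 169. Several of these, Ldb3, Des and Tpm1 included, also belong to heart muscle. The filamin gene Flna (145 and 144 FPKM), the caldesmon gene Cald1 (19.2 and 18.8) and the myosin light chain kinase gene Mylk (1.81 and 2.35), chosen after their values were seen, passed in neither fit.

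Calls among regulators of smooth muscle genes went in both directions. A list of 30 had 29 genes tested, of which 1 was called higher and 1 lower without the block. Of all 12650 genes tested, 3 were called higher and 19 lower there. The block gave 2 higher and 5 lower, against 1.42% of all genes tested called higher and 3.70% called lower. The median of the list was -0.06. The transcription factor gene Tcf21 rose from 19.1 to 41.9 FPKM and the zinc finger gene Gata5 fell from 33.1 to 15.7, both without the block. Of the other 4 with the smallest p, Tgfb1, a growth factor that promotes smooth muscle differentiation, had 8.99 ± 1.57 and 5.64 ± 0.69 FPKM, and Klf4, a repressor of these genes in cultured cells, had 5.45 ± 0.54 and 3.69 ± 0.57 (controls first, SD over 3 libraries). Both fell with the block only, Notch3 (29.5 and 38.1 FPKM) rose with the block only, and the Notch target Heyl passed in neither. Serum response factor itself, Srf, had 75.4, 68.9 and 80.3 FPKM in controls and 64.8, 65.8 and 71.4 FPKM in mutants, with overlap, and passed in neither fit (limma adjusted p = 0.930 without and 0.179 with the block). Myocd, its muscle-restricted coactivator, had 11.8, 18.9 and 23.3 FPKM in controls and 7.24, 10.3 and 15.2 FPKM in mutants. Those groups overlapped too, each mutant was lower than its same-numbered control, and Myocd passed with the block (adjusted p = 0.00675) and not without it (adjusted p = 0.759). Srf and Myocd were chosen after their values were seen.

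Paralogs of the contractile genes differed among themselves. A list of 28 had 25 genes tested, of which 1, Lmod3, was called lower without the block and 11 with it. Over all genes tested, 0.150% were called lower without the block and 3.70% with it. In limma 0 of the listed genes were higher either way, and their median was -0.26. The 6 with the smallest p were Lmod3, Smtnl2, Tmod1, Myh7, Synpo2l and Tpm1, and all were called lower with the block. Against the 9.27 and 5.67 FPKM of Lmod1, its striated muscle relative Lmod3 was at 6.13 ± 1.14 and 2.24 ± 0.33 FPKM (SD over 3 libraries each). The smoothelin-like gene Smtnl2 had 38.0 and 23.4 FPKM, where Smtn had 13.7 and 11.7. Relatives of broad expression, chosen here after their values were seen, varied. Cnn3 (133.1 and 134.5 FPKM) and the nonmuscle myosin gene Myh9 (56.9 and 56.4) stood near their controls and passed in neither fit. Cnn2, Myl6 and the nonmuscle myosin gene Myh10 were at 77.4%, 74.8% and 78.6% of control, lower in all 3 pairs, and passed with the block only. Tagln2 was at 77.0% and passed in neither.

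The 6 genes outside the list whose profile over the 6 libraries was most like the mean standardized profile of the 9 tested members were Chac2, Kcnip3, Dusp1, Snx12, Pecam1 and Ensa, with Pearson correlations of 0.992 to 0.996. Actc1 stood at rank 18 of 12619 genes by the same measure, with 0.985. All the values of a library share its depth and its tissue make-up. The correlation compares shape and not size. Mutant means of the 6 genes ran from 61.3% of control for Kcnip3 to 90.1% for Ensa. In limma with the block Kcnip3, Dusp1, Snx12 and Pecam1 passed, and Chac2 and Ensa did not (adjusted p = 0.132 and 0.152). For Pecam1, an endothelial adhesion gene, the FPKM was 9.54, 7.77 and 9.22 in controls and 6.86, 5.94 and 7.04 in mutants.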

How the data were processed

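RNA was sequenced from 3 control and 3 mutant pools, grouped and numbered by sample title. The authors deposited FPKM values in 1 table, 1 column for each library. Tools named in the submitters' processing notes are Cufflinks 2.2.1, STAR 2.5.1b and bcl2fastq 2.18, with the build mm8. No source used here gives a strand setting or filter. Reads were recovered by multiplying FPKM by annotated exon length (GENCODE M21, GRCm38) and each library's denominator. They came out whole, within 0.01 read, for 20421 of 25759 genes (79.3%), so coordinates are given on GRCm38. For most others the nearest length that gave whole reads was used, which can misstate a gene's reads by a common factor and leaves its fold change as it is. The denominators were below the recovered reads, at 23269534 against 29119154 in control replicate 1 and 27340116 against 30331027 in mutant replicate 3. Summed FPKM ran from 314462 in mutant replicate 3 to 417592 in control replicate 1.

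Mutants were compared with controls by limma 3.58.1 (R 4.3.3), with a mean-variance trend, on log2(FPKM + 1) for the 12650 genes whose mean FPKM was 1 or more. Tests were two-sided, with Benjamini-Hochberg adjustment over all genes and a threshold of 0.05. The labels do not tie libraries to litters, so p-values measure the spread between these libraries, and 3 per group limit the precision. Deviations of same-numbered libraries from their group means correlated at 0.73, 0.44 and 0.44 over genes, all over 0.1, so a shared number was treated as a pair, although control 2 and mutant 3 also had 0.31. Blocked values are therefore printed beside the others. The pairing comes from the data, not the labels.

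The fits were checked on simulated data. Without the block, limma recovered 1.49% of 1.5-fold and 49.3% of 2-fold changes, and with it 55.2% and 91.0%. The simulated libraries were given the real differences between same-numbered pairs, a setting that favours the block. The genes, gene lists and tests were chosen with earlier results of these data known. Named from the lists were up to 6 genes with the smallest unblocked p, and genes outside that rule are said to be so. CArG boxes were searched in RefSeq promoters.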

Additional observations from a re-analysis of the deposited data

How the results depend on the processing

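The log2 fold changes of the 10 members and Actc1 kept their sign in all 222 values from 22 other settings, and 49 of these passed the threshold. Leaving out 1 library at a time, limma without the block called 0 to 2 genes higher and 0 to 2 lower against 3 and 19, and 0 members. With the replicate block it called 180 higher, 468 lower and 7 members, and without both libraries numbered 1, 2 or 3 it called 94, 54 and 80 higher, 246, 229 and 210 lower, and 6, 5 and 4 members. Array weights gave 193, 349 and 5 members. Without a filter 5 were higher and 3 lower, with a mean FPKM of at least 5 there were 11 lower, and with either rescaling to equal sums 9 lower. Voom on reads with the block gave 427, 845 and 8 members. With at least 10 reads in 3 libraries, added after the data were seen, it gave 510, 920 and 9 members, and 8 higher without the block.

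Relative to Actc1, 2 members were called higher in the main test and 0 to 2 without single libraries. Quantile normalization gave 0 and the replicate block 6. With the block, 5 were called with no filter (also added later) and 7 without the libraries numbered 1. Either voom fit with the block called 4 higher and 1 lower (Actg2 in the first, Myh11 in the second). Of all genes tested, 11730 of 12649 were called higher in the main test, 104 with quantile normalization and 12399 with the block. Without single libraries the number ran from 95 to 11938. With the block it was 25393 of 25887 without a filter and 12354 of 12664 without the libraries numbered 1. The voom fits with the block called 12084 of 12627 and 14937 of 16413 genes higher, and 70 and 86 lower. The sign turned for Acta2 with quantile normalization (-0.055), without mutant replicate 2 (-0.019, in a range up to 0.17 without single libraries) and with the block and no libraries numbered 2 (-0.0095). It turned for Cnn1 with quantile normalization (-0.0080). For Actg2 it turned with a pseudocount of 0.1 (-0.37), quantile normalization (-0.13), without mutant replicate 2 (-0.068, in a range up to 0.17), with the block and no libraries numbered 2 (-0.071), and by voom without (-0.44 under both filters) and with the block (-0.47 under both). For Myh11 it turned by voom without (-0.81) and with the block (-0.78). By construction the pseudocount of 1 shrinks low values, and the cause of the other turns was not tested. The Acta2 share of 6 actins differed by -2.61 percentage points (mutant minus control, or -3.20 to -1.82 without single libraries, exact sign-flip p = 0.25 over 3 pairs) and by 1.21 over 3 actins.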

Other observations

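Markers of the second heart field, the neural crest, and the epicardium and mesothelium were read from the same fits. With the replicate block, 1.42% of all genes tested were called higher and 3.70% lower. By an unadjusted p under 0.05 without it, 329 of the 12650 genes were higher and 546 lower. Of 12 second heart field genes, all tested, limma with the replicate block called 5 higher and 2 lower in mutants and without it called 0 (5 higher and 3 lower by an unadjusted p under 0.05), with a median log2 fold change of 0.39. Their summed FPKM was 266 to 334 in controls and 318 to 397 in mutants, with overlap. Of 9 neural crest genes tested from a list of 10, 2 were called higher with the block and 0 by limma without it (3 higher by an unadjusted p under 0.05), and the sums of 151 to 245 FPKM in controls and 203 to 265 FPKM in mutants overlapped. Of 7 epicardial and mesothelial markers 4 were tested, and Tcf21, at 19.1 FPKM in controls and 41.9 FPKM in mutants, was the called gene. The other 3 passed in neither fit, with control and mutant means of 1.38 and 1.46 FPKM for Wt1, 8.32 and 7.17 for Upk3b and 2.00 and 1.81 for Upk1b.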
